A study of Homo sapiens with 20 samples.

Results

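Epithelial cells of the pancreatic duct carry the juice of the acini to the gut and add bicarbonate and water to it. The 9 genes described here are commonly used to mark that epithelium: *CFTR*, *SLC4A4*, *AQP1*, *KRT19*, *KRT7*, *MUC1*, *SPP1*, *ANXA4* and *PKHD1*. They were taken as markers by symbol, not by a threshold on their values, although earlier results of these data were known, and were found through their Ensembl identifiers. All 9 were among the 60624 genes listed for islet-like organoids and the 60623 listed for pancreatic progenitors.

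The cells came from MEL1, an established human embryonic stem cell line, given in the study's methods as MEL1 INS GFP/W, a reporter line with GFP at the insulin gene. They either kept *ALKBH5* (WT) or had it knocked out by CRISPR-Cpf1 (A5-KO). ALKBH5 removes the methyl group of N6-methyladenosine (m6A), a modification of mRNA that is read during splicing, translation and decay. Human islet-like organoids (hILOs) were sequenced as 2 WT and 2 A5-KO libraries, made from cultures whose last listed medium ended on day 22. Pancreatic progenitors (PPs), whose last medium ended on day 14, were sequenced as 2 libraries for each genotype at 0, 1, 2 and 3 h of actinomycin D (Act D, 1 µg per ml), which blocks transcription. The 0 h cells received none, and the labels do not say which knockout clone a library came from or whether replicates were separate cultures. The *p* values therefore measure only the spread between these libraries. No duct cells were sorted, and in bulk RNA fewer cells of a type cannot be told apart from less RNA per cell.

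The PP libraries held between 30516384 and 35206514 reads, recovered from the deposited CPM (reads relative to the library total, not divided by length). TPM, the unit in hILOs, is divided by transcript length and by the library total and keeps no depth. *ALKBH5* itself measured 78.8 and 81.9 TPM in the WT hILOs libraries against 4.16 and 3.42 TPM in the A5-KO hILOs libraries. At 0 h it measured 149 and 172 CPM in the WT PPs libraries against 19.1 and 18.8 CPM in the A5-KO PPs libraries. The 2 WT libraries at 2 h of Act D differed from each other: *KRT19* was at 293 CPM in the first and 513 CPM in the second. Their disagreement was the largest among the PP groups (chi-squared per degree of freedom 34.1), before WT at 3 h (23.1) and A5-KO at 1 h (21.9). With 2 libraries it cannot be told which is unusual. The second is called the library that stood apart, as a label only. Calls at 2 h that end or appear without it are given with and without it. Marker lists for other cells differed with genotype too. Of the 16 hepatocyte genes, which were all above 1 TPM in all 4 hILO libraries, the sum was 26497 to 26714 TPM in WT and 42442 to 42900 TPM in A5-KO. With a fold change over 1.5 and a limma adjusted *p* below 0.05, 4 of these genes rose and 4 fell. Over all genes tested in hILOs, 2.7% rose and 4.09% fell by these limits. *TTR*, the most abundant, was at 7527 and 7550 TPM in WT against 18674 and 18749 TPM in A5-KO. This 1 gene made up most of the difference between the hepatocyte sums. The 20 endocrine genes summed to 37528 to 39909 TPM in WT hILOs and 30489 to 31815 TPM in A5-KO hILOs, with *CHGA* and *INS* the most abundant. Among the acinar genes, 11 or 12 of 22 reached 1 TPM in each hILO library. Their sum was 102.7 to 106 TPM in WT and 117 to 122 TPM in A5-KO. In PPs at 0 h it was 70.2 to 79.2 CPM in WT against 31.4 to 36.6 CPM in the knockout. Most of that WT sum was *GP2*, at 47.3 and 55.7 CPM. Of the 6 acinar genes tested at 0 h, 1 fell and none rose by the same limits, where 1.13% and 1.57% of all genes did. In PPs at 0 h the 15 intestinal genes summed to between 774 and 794 CPM in WT, against 962 to 1011 CPM with the knockout. Of the 12 tested, however, none rose by the same limits and 1 fell. The 16 hepatocyte genes summed to 1853 to 1959 and 2625 to 2732 CPM there. By the same limits 7 of the 14 tested rose and none fell, where 1.57% and 1.13% of all genes did. Intestinal and bile duct epithelia also express several of the duct genes, and the part of such cells in the results was not tested.

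Secretin, acting through cAMP, opens CFTR, a chloride and bicarbonate channel of the apical membrane. SLC4A4 brings sodium and bicarbonate in from the blood side, and AQP1 is a channel through which water follows. KRT19 and KRT7 are keratins, the intermediate filaments of simple epithelia. MUC1 is a transmembrane mucin, SPP1 (osteopontin) a secreted phosphoprotein, ANXA4 a calcium-dependent protein that binds membranes, and PKHD1 (fibrocystin) a protein of the primary cilium that is mutated in recessive polycystic kidney disease.

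The sequences before the start sites of *CFTR*, *AQP1* and *SPP1* are shown because *CFTR* was higher in A5-KO libraries at every stage, *AQP1* was lower in A5-KO PPs, and *SPP1* was lower in A5-KO hILOs. They are 300 bases each from RefSeq on GRCh38.p14, all on the plus strand, at chr7:117479775-117480074, chr7:30911603-30911902 and chr4:87975464-87975763. Capitals mark exact matches, on either strand, to 1 of 7 short motifs. Those found in these windows were the CCAAT box, whose reverse reads ATTGG, the GC box, searched as GGGCGG on both strands, the TATA box, searched by the letters TATAAA, and the half-site of hepatocyte nuclear factor 1 (HNF1), searched by the letters GTTAAT. A FOXA, a SOX and a TEAD motif were searched as well and matched nowhere in the windows shown.
CFTR: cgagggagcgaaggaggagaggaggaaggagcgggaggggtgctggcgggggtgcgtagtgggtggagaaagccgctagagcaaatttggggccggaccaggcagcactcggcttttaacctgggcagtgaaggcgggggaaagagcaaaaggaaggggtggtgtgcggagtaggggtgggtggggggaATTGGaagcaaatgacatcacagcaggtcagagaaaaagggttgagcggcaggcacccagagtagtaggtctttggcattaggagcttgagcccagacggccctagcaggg
AQP1: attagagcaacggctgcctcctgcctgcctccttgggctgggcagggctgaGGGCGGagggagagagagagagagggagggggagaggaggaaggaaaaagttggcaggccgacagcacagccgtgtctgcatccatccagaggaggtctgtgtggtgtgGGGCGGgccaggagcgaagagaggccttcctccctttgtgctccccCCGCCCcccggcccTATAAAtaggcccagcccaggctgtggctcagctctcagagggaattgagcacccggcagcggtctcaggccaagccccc
SPP1: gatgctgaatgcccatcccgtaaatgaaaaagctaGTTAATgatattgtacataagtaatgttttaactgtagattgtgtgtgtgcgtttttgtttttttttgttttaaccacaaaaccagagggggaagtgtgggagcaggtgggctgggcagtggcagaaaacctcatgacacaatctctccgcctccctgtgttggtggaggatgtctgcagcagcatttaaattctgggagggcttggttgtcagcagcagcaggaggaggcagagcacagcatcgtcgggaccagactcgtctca
The *CFTR* window held 1 CCAAT box (at -61 from the start site), the *AQP1* window 3 GC boxes and a TATA box (at -30), and the *SPP1* window an HNF1 half-site (at -215). Of the 10380 promoters of genes tested in PPs, 36.5% held a CCAAT box, 70.1% a GC box, 5.6% a TATA box and 3.7% an HNF1 half-site. Guanine and cytosine made up 60.7% of the *CFTR* window, 65.3% of that of *AQP1* and 47.7% of that of *SPP1*, against a median of 65.3% over the tested promoters. Promoters of 7 of the 9 genes were in the table, and *KRT7* and *KRT19* were not.

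A pair of short sequence elements of the mRNAs are relevant to m6A and to decay. Methylated adenosines often lie in GGACT, written as DNA, and ATTTA is the core of AU-rich elements that can shorten an mRNA's life. The windows below, from GRCh38, are those of *KRT19* and *AQP1*, the 2 duct mRNAs whose level changed with time in Act D in A5-KO (none did in WT), and capitals mark the element. The *AQP1* 3′ UTR held ATTTA 4 times, of which the first is shown.
KRT19 coding sequence, GGACT: ggttcaccagccGGACTgaagaattgaac
KRT19 3′ UTR, ATTTA: ctgccaataaaaATTTAtggtccaaggga
AQP1 3′ UTR, GGACT: cctgacccgctcGGACTtactgcctgacc
AQP1 3′ UTR, first ATTTA: ctggggaccaagATTTAccaattcaccca
The first window runs across an exon junction on chromosome 17 (minus strand), between 41524254 and 41524392. The other windows lie within 1 exon each, at chr17:41523617-41523645, chr7:30924152-30924180 and chr7:30923833-30923861. The *KRT19* mRNA (1390 bases) held GGACT 1 time and the *AQP1* mRNA (2754 bases) 1 time, or 0.719 and 0.363 per kilobase, where the median of 12228 tested mRNAs was 0.921. *CFTR* held it 3 times, *ANXA4* and *SPP1* 2 times each, *SLC4A4* 5 times and *PKHD1*, whose mRNA has 16271 bases, 16 times. ATTTA was in the 3′ UTR of 7 of the 9 mRNAs, not in those of *KRT7* and *MUC1*, and in 73.7% of tested mRNAs. These counts describe letters in 1 transcript for each gene, and m6A was not analysed here.

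The duct genes spanned a wide range of levels. In WT hILOs, on the TPM scale, the order was *KRT19* (mean 623), *ANXA4* (304), *CFTR* (20.3), *SLC4A4* (8.21), *MUC1* (7.03), *SPP1* (3.71), *KRT7* (2.51), *AQP1* (1.12) and *PKHD1* (0.013). The libraries of *SPP1* and *KRT7* overlapped, as did those of *KRT7* and *AQP1*, and no other neighbours in this order did. In WT PPs at 0 h, CPM per kilobase of exon gave *KRT19* (mean 209), *SLC4A4* (27.9), *ANXA4* (21.0), *CFTR* (3.32), *SPP1* (2.74), *AQP1* (1.54), *MUC1* (0.72), *KRT7* (0.276) and *PKHD1* (0.065). With the length of the canonical mRNA instead, a choice made after the data were seen, *ANXA4* moved above *SLC4A4* and *SPP1* above *CFTR*. *KRT19* was first and *PKHD1* last by either length. The plot of levels by library shows the same values.

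**Figure D1:**
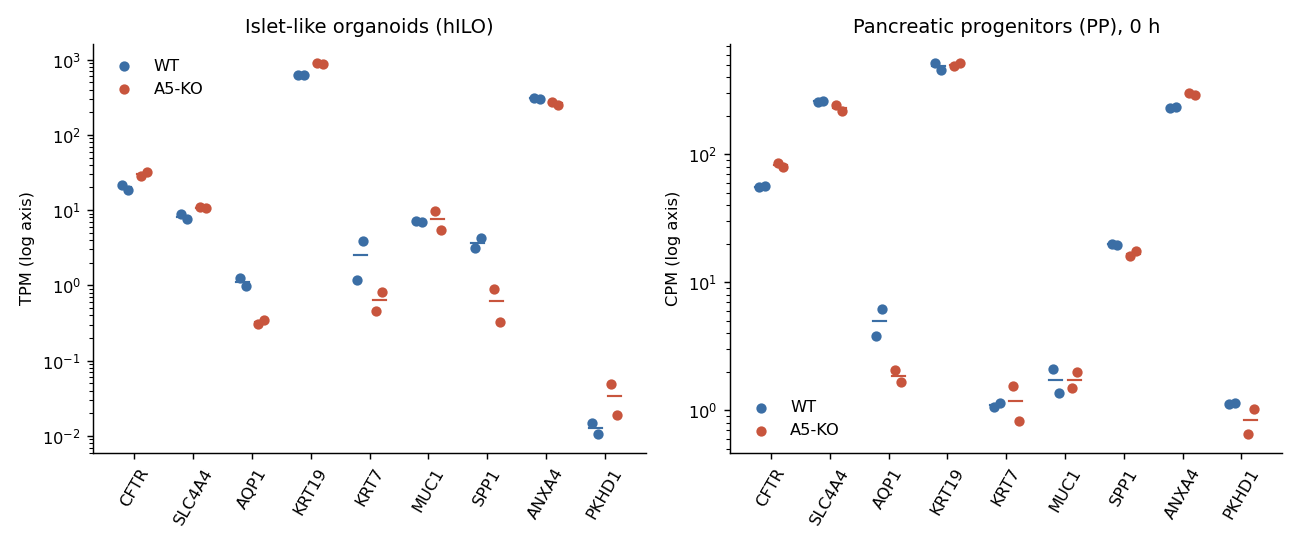
Levels of the 9 duct genes in hILOs (left, TPM, log axis) and in PPs at 0 h (right, CPM, log axis). Each point is 1 library (blue WT, red A5-KO), and short lines mark the mean of 2. *CFTR* lay higher in both A5-KO libraries at both stages, *AQP1* lower, and *KRT19* lay higher in A5-KO hILOs, at 913 and 872 TPM against 629 and 617 TPM.

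In hILOs, *SPP1* was the 1 duct gene that fell in A5-KO by the limits used throughout, a fold change over 1.5 and an adjusted *p* below 0.05. Over all 17300 genes tested, 4.09% fell and 2.7% rose by these limits. None of the 7 duct genes that passed the filter of a mean of 1 TPM rose by them in limma. Nor did any at an unadjusted *p* below 0.05 with the same fold limit. Counts at an unadjusted *p* in hILOs and at single times keep that fold limit throughout. On unadjusted limma *p* alone, *KRT19* (8.8e-05), *CFTR* (0.0084) and *SLC4A4* (0.032) rose, and *SPP1* (0.0041) and *ANXA4* (0.016) fell. *KRT19* passed on adjusted *p* alone, as did *SPP1*, so 2 of 7 did so, where 12.6% of all tested genes did.

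Among the transport genes in hILOs, *CFTR* measured 21.9 and 18.7 TPM in the WT libraries against 28.0 and 31.8 TPM in the A5-KO libraries. Both A5-KO libraries lay above both WT libraries. The log2 difference was 0.54 ± 0.12 (SE), and the limma adjusted *p* was 0.058. *SLC4A4* measured 8.75 and 7.67 TPM in the WT libraries against 10.8 TPM in both A5-KO libraries, again without overlap (log2 difference 0.36 ± 0.12, limma adjusted *p* = 0.12). *AQP1* measured 1.26 and 0.987 TPM in the WT libraries against 0.304 and 0.344 TPM in the A5-KO libraries, and its mean was below the filter, so it was not tested.

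The keratins were at very different levels. *KRT19* measured 629 and 617 TPM in the WT hILOs libraries against 913 and 872 TPM in the A5-KO hILOs libraries, a log2 difference of 0.52 ± 0.04 with a limma adjusted *p* of 0.0066. That is 1.43-fold, under the fold limit. *KRT7* measured 1.17 and 3.85 TPM in the WT libraries against 0.454 and 0.822 TPM in the A5-KO libraries. The WT libraries differed from each other more than the A5-KO libraries did from the lower of them (log2 difference -0.99 ± 0.46, limma adjusted *p* = 0.23).

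*SPP1* measured 3.16 and 4.26 TPM in the WT hILOs libraries against 0.899 and 0.324 TPM in the A5-KO hILOs libraries. Both knockout libraries lay below both WT libraries, and the gene fell by 1.56 on the log2(TPM + 1) scale (SE 0.28, limma adjusted *p* = 0.040). The call was lost when any 1 of the 4 libraries was left out (limma adjusted *p* between 0.083 and 0.16, log2 difference between -1.82 and -1.30). With a pseudocount of 0.1 the adjusted *p* was 0.058, without the filter 0.13 and with a replicate block 0.084, all from limma. *MUC1* measured 7.09 and 6.97 TPM in the WT libraries against 9.80 and 5.41 TPM in the A5-KO libraries, so its groups overlapped. *ANXA4* measured 305 and 303 TPM in the WT libraries against 274 and 248 TPM in the A5-KO libraries, lower in both knockout libraries but not past the limit (log2 difference -0.22 ± 0.06, limma adjusted *p* = 0.082). *PKHD1* was between 0.010 and 0.048 TPM in all 4 libraries and was not tested.

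In untreated PPs, at 0 h, *AQP1* was the 1 duct gene that fell in A5-KO, where 1.13% of the 13911 tested genes fell and 1.57% rose. None of the 8 duct genes tested rose past both limits in limma. With the fold limit kept, 0 did at an unadjusted *p*, in edgeR or in DESeq2. *CFTR*, *ANXA4* and *AQP1* passed on adjusted *p* alone, 3 of 8, where 4.21% of all tested genes did.

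*AQP1* measured 3.85 and 6.17 CPM in the WT PPs libraries against 2.07 and 1.67 CPM in the A5-KO PPs libraries. It lay lower in both knockout libraries and fell by 1.04 on the log2(CPM + 1) scale (SE 0.22, limma adjusted *p* = 0.033). The adjusted *p* was 0.18 without the second WT library, 0.072 without the second A5-KO library and 0.20 with no filter on low values, all from limma. In the annotation, 27.9% of the exon bases of *AQP1* also belong to another gene on the same strand, a protein-coding model without a symbol (ENSG00000250424), so reads could be split between them.

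*CFTR* measured 55.3 and 56.5 CPM in the WT PPs libraries against 85.9 and 79.3 CPM in the A5-KO PPs libraries, 1.47-fold higher (log2 difference 0.55 ± 0.09, limma adjusted *p* = 0.0089). The 2 groups were far apart relative to their spread, and the difference was just under the fold limit, past it only when the second A5-KO library was left out (log2 difference 0.61). *ANXA4* measured 232 and 233 CPM in the WT libraries against 303 and 292 CPM in the A5-KO libraries (log2 difference 0.35 ± 0.07, limma adjusted *p* = 0.021). *SLC4A4* measured 259 and 261 CPM in the WT libraries against 244 and 220 CPM in the A5-KO libraries, lower in both libraries (log2 difference -0.16 ± 0.08, limma adjusted *p* = 0.27). *SPP1* measured 20.0 and 19.7 CPM in the WT libraries against 16.04 and 17.5 CPM in the A5-KO libraries (limma adjusted *p* = 0.35).

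For *KRT19* the WT libraries at 0 h were at 522 and 457 CPM and the A5-KO libraries at 487 and 520 CPM, which overlap. The log2 difference was 0.04 ± 0.08. *KRT7*, with 0.820 to 1.55 CPM in the 4 libraries, and *MUC1*, with 1.36 to 2.096 CPM, overlapped as well. *PKHD1* measured 1.12 and 1.15 CPM in the WT libraries against 0.649 and 1.03 CPM in the A5-KO libraries, and its mean was below the filter. These 3 genes were counted by few reads, between 9 and 80 for *KRT7*, 44 and 118 for *MUC1* and 20 and 58 for *PKHD1* over the 16 libraries. *AQP1* was counted by 57 to 217 reads, *KRT19* by 8292 to 21989 and *CFTR* by 1613 to 2993.

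**Figure D2:**
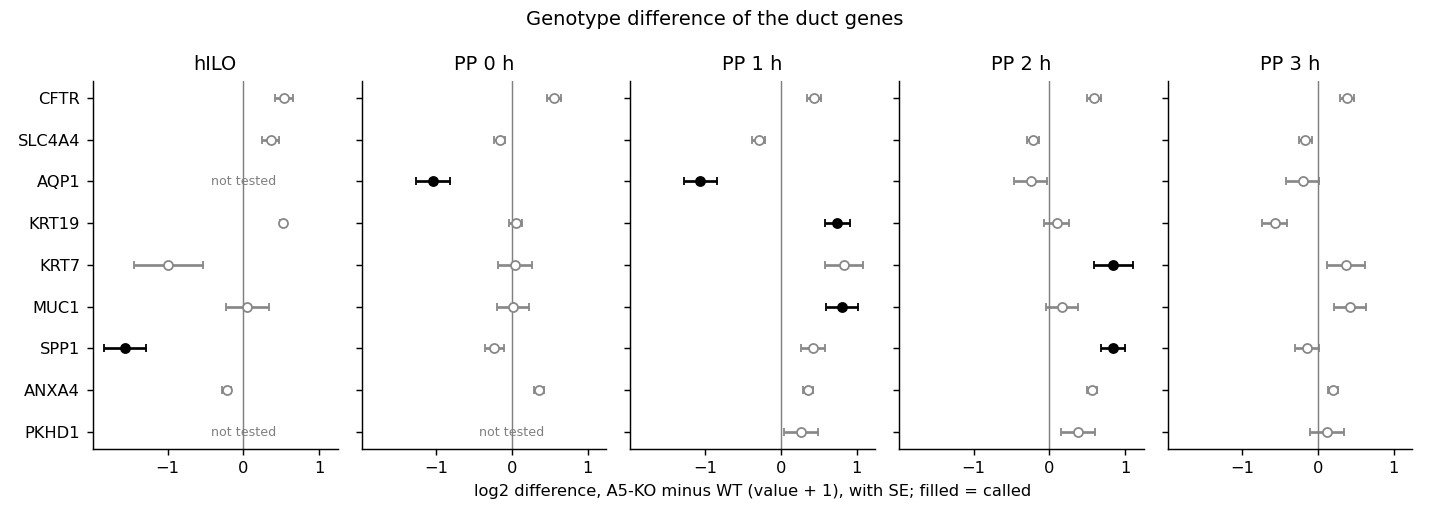
Log2 difference between A5-KO and WT for each duct gene in hILOs (TPM + 1) and in PPs at 0, 1, 2 and 3 h of Act D (CPM + 1), with its standard error. Filled points passed both limits: *SPP1* in hILOs (-1.56), *AQP1* at 0 h (-1.04) and 1 h (-1.06), *KRT19* (0.75) and *MUC1* (0.81) at 1 h, and *SPP1* (0.83) and *KRT7* (0.84) at 2 h.

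During Act D the CPM scale compares each mRNA with the total of its library, so a value that holds its level is one that decayed no faster than the average. After 1 h, *KRT19* and *MUC1* rose and *AQP1* fell in A5-KO relative to WT at that time, of 9 duct genes tested. Over all 13620 genes, 2.94% rose and 1.15% fell. *KRT7* missed the limit (log2 difference 0.83, limma adjusted *p* = 0.055) and passed both limits with a pseudocount of 0.1 (limma adjusted *p* = 0.040), with median-of-ratios scaling (0.048) and in edgeR (0.032). On adjusted *p* alone 6 of 9 passed (with *CFTR*, *ANXA4* and *SLC4A4*), where 8.14% of all genes did.

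*KRT19* at 1 h measured 333 and 372 CPM in the WT libraries against 546 and 642 CPM in the A5-KO libraries (log2 difference 0.75 ± 0.17, limma adjusted *p* = 0.013). Both A5-KO libraries lay above both WT libraries, which lay below both WT libraries of 0 h. The call was lost without either WT library or the second A5-KO library at 1 h (limma adjusted *p* between 0.054 and 0.17). *MUC1* measured 1.40 and 1.53 CPM in the WT libraries against 3.19 and 3.45 CPM in the A5-KO libraries (log2 difference 0.81 ± 0.21, limma adjusted *p* = 0.029), and its call was lost without any 1 of these 4 libraries (limma adjusted *p* between 0.059 and 0.185). *AQP1* measured 6.20 and 4.42 CPM in the WT libraries against 1.67 and 2.37 CPM in the A5-KO libraries (log2 difference -1.06 ± 0.22, limma adjusted *p* = 0.0070). Its adjusted *p* was 0.12 without the first WT library. *SLC4A4* measured 247 and 237 CPM in the WT libraries against 212 and 184 CPM in the A5-KO libraries, 0.817 of WT (limma adjusted *p* = 0.040).

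After 2 h, *SPP1* and *KRT7* rose in A5-KO relative to WT, where 2.66% of the tested genes rose and 4.24% fell. None of the 9 fell past both limits in limma or edgeR, or at an unadjusted *p* with the same fold limit. *SPP1* measured 19.5 and 12.7 CPM in the WT libraries against 27.3 and 30.6 CPM in the A5-KO libraries (log2 difference 0.83 ± 0.16, limma adjusted *p* = 0.0037). The lower WT value came from the library that stood apart. Without that library the log2 difference was 0.54, under the fold limit, and without the first WT library it was 1.12. The call was also lost without the second A5-KO library at 2 h (limma adjusted *p* = 0.062). *KRT7* measured 0.481 and 1.22 CPM in the WT libraries against 1.93 and 2.62 CPM in the A5-KO libraries (log2 difference 0.84 ± 0.25, limma adjusted *p* = 0.040). Its groups did not overlap, and the call was lost in 7 of the 16 fits that each left out 1 library, and with a pseudocount of 0.1 (limma adjusted *p* = 0.056). Without the library that stood apart the log2 difference was 1.14, and without the first WT library it was 0.55, under the fold limit. *CFTR*, with 51.8 and 57.2 CPM in the WT libraries against 82.3 and 81.9 CPM in the A5-KO ones, was 1.498-fold higher and just under the limit (log2 difference 0.58 ± 0.09, limma adjusted *p* = 0.00085). Without the library that stood apart *CFTR* was past the fold limit (log2 difference 0.65), and without the first WT library it was under it (0.51). With a pseudocount of 0.1 it passed both limits (0.59). *ANXA4* measured 240 and 233 CPM in the WT libraries against 342 and 355 CPM in the A5-KO libraries (log2 difference 0.56 ± 0.06, limma adjusted *p* = 3.5e-05). On adjusted *p* alone 4 of 9 passed, against 12.5% of all genes. The median log2 difference of all genes was -0.11 at 2 h, and with median-of-ratios scaling, which moved that median to -0.02, *CFTR* and *ANXA4* passed both limits too, as they did in edgeR. The share of all calls at 2 h that were higher in A5-KO was 38.6%, and 54.5% with that scaling.

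After 3 h none of the 9 passed both limits in limma, whereas 18.9% of all tested genes did. At an unadjusted limma *p* below 0.05 with the same fold limit the count was also 0 of 9, as it was in edgeR on the recovered reads. Of the calls over all genes at 3 h, 6.11% were higher in A5-KO, and 17.9% with median-of-ratios scaling. The adjusted *p* alone was passed by *CFTR*, *KRT19* and *ANXA4*, 3 of 9, against 31.3% of all genes. *CFTR* measured 66.3 and 69.3 CPM in the WT libraries against 85.0 and 91.7 CPM in the A5-KO libraries (log2 difference 0.38 ± 0.09, limma adjusted *p* = 0.0057). *KRT19* measured 412 and 396 CPM in the WT libraries against 280 and 262 CPM in the A5-KO libraries, now below WT in both libraries (log2 difference -0.57 ± 0.17, limma adjusted *p* = 0.017). The median difference of all genes was -0.13 at this time. *SPP1* measured 21.7 and 23.3 CPM in the WT libraries against 20.7 and 19.8 CPM in the A5-KO libraries.

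Across the 4 times, *CFTR* and *ANXA4* were above WT in every A5-KO library at its own time, and *SLC4A4* and *AQP1* below it. *KRT19* was higher at 1 h and lower at 3 h. These times share no libraries, but they share the cell lines, and the 1, 2 and 3 h tests share 1 estimate of the spread.

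**Figure D3:**
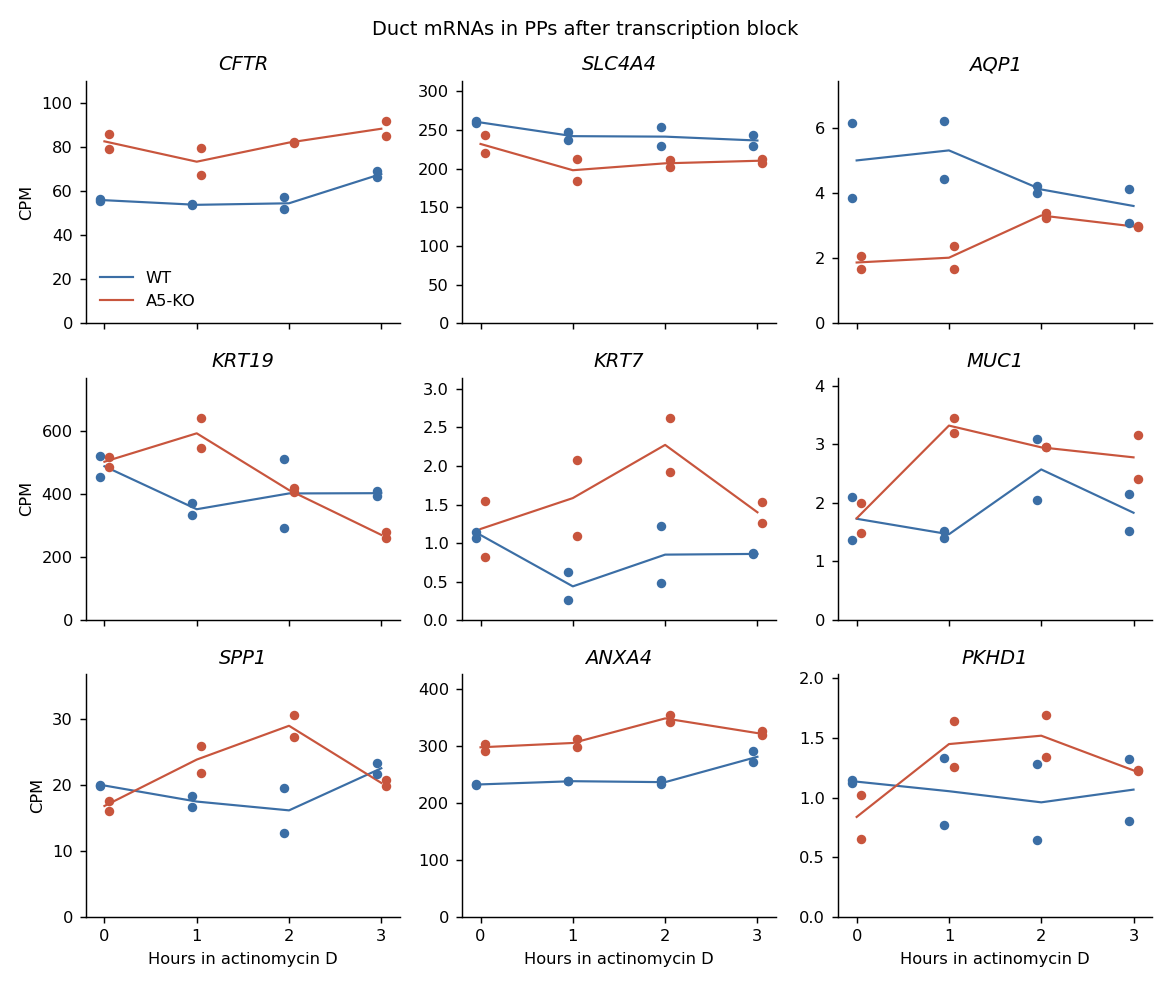
CPM of the 9 duct genes in PPs against hours in Act D, each axis starting at 0. Points are libraries (blue WT, red A5-KO) and lines join the means of 2. *KRT19* in A5-KO ran from 487 and 520 CPM at 0 h through 546 and 642 CPM at 1 h to 280 and 262 CPM at 3 h, while *CFTR* and *ANXA4* stayed above WT at each time.

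As to mRNA stability, slopes over the 4 times were fitted for each genotype on log2(CPM + 0.1). In WT none of the 9 slopes passed the adjusted *p* limit, and few genes did at all (0.242% of 13620). At an unadjusted *p* below 0.05, *CFTR* (0.09 per h) and *ANXA4* (0.08 per h) had positive slopes in WT. In A5-KO, *KRT19* fell at -0.32 ± 0.08 per h (limma adjusted *p* = 0.0033) and *AQP1* rose at 0.27 ± 0.09 per h (limma adjusted *p* = 0.027). Over all genes, 37.1% fell and 7.44% rose in A5-KO, so 1 of 9 in each direction stands beside these shares. With median-of-ratios scaling they were 26.9% and 23.2%, and *CFTR* (0.14 per h) and *ANXA4* (0.15 per h) rose besides *AQP1*. The *AQP1* call was lost without the second A5-KO library at 0 h (limma adjusted *p* = 0.11) and with no filter (0.062, limma).

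The difference between the A5-KO and WT slopes was not past the limit for any of the 9 duct genes in limma, where 2.67% of all genes passed it. The closest were *AQP1* (0.43 ± 0.13 per h, limma adjusted *p* = 0.074) and *KRT19* (-0.25 ± 0.11 per h, limma adjusted *p* = 0.19), both with an unadjusted limma *p* below 0.05. The *AQP1* difference passed the limit in 1 of the 16 fits that left out a library, the one without the first WT library at 0 h (0.53 per h, limma adjusted *p* = 0.021). With 0 and 3 h alone the *KRT19* difference was past it (-0.21 per h, limma adjusted *p* = 0.0027), and with 0 and 1 h alone it was past it in the other direction (0.71 per h, limma adjusted *p* = 0.033).

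Half-lives relative to the library total came from a line through 0 h in each replicate. A replicate here joins the same-numbered libraries of the 4 times, which the labels do not tie to 1 culture. The spread between replicates depends on that joining. For the WT replicates of *KRT19* they were 4.19 and 24.2 h, and for the A5-KO replicates 5.24 and 4.16 h, so the WT replicates differed more from each other than the genotypes. The second WT value holds the 2 h library that stood apart, and from 0, 1 and 3 h alone it was 10.9 h. The share of the 0 h level left at 3 h was 78.9% and 86.7% in WT and 57.4% and 50.4% in A5-KO. At 1 h that share was 63.9% and 81.5% in WT and 112% and 124% in A5-KO. The course was not a steady fall in either genotype, so 1 half-life does not describe it. *SLC4A4* gave 36.3 and 13.1 h in WT, against 10.6 and 22.2 h in A5-KO, a spread that covers both genotypes (14.4 h in place of 13.1 h without that library). For *CFTR* in WT and *ANXA4* in both genotypes the level did not fall in either replicate, and no half-life could be computed. *SPP1*, *MUC1*, *AQP1* and *PKHD1* did not fall in either A5-KO replicate, nor did *KRT7*, and in WT they fell in 1 of 2 replicates, *KRT7* in both (3.11 and 7.79 h, the second 5.11 h without that library). The second WT replicate of *SPP1* did not fall without it.

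Transcription factors of duct and progenitor cells are given on the same scale. SOX9 maintains the duct and progenitor programme, and ONECUT1 acts early in the development of pancreas and bile ducts. Of the 18 factors on this list, all tested, 15 fell with time in A5-KO and 1 in WT (*ONECUT1*, -0.34 ± 0.06 per h, limma adjusted *p* = 0.041, lost in 10 of the 16 fits without 1 library), where 37.1% and 0.11% of all genes fell. At an unadjusted *p* below 0.05, 12 of 18 fell in WT. Their median slope was -0.72 per h in A5-KO and -0.32 per h in WT, against -0.08 and -0.03 over all genes. *SOX9* ran from 292 and 227 CPM at 0 h to 16.8 and 15.97 CPM at 3 h in A5-KO. In WT it ran from 322 and 237 CPM to 80.1 and 82.4 CPM, above the 59.5 and 71.2 CPM of WT at 1 h. *HES1*, a Notch target, had the steepest slope of the list in A5-KO (-1.58 ± 0.28 per h), followed by *SOX9* (-1.31 ± 0.17 per h) and *KLF5* (-1.28 ± 0.17 per h), with limma adjusted *p* values of at most 0.000303.

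**Figure D4:**
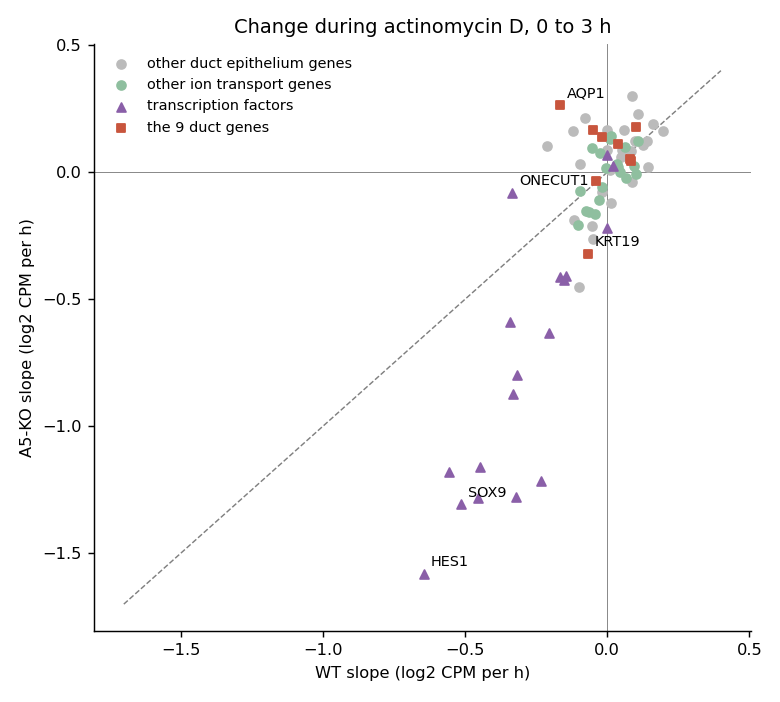
Slope of log2 CPM per hour in Act D for WT (x axis) and A5-KO (y axis). Each point is 1 gene: the 9 duct genes (red squares), the other ion transport (green) and duct epithelium genes (grey), and the transcription factors (purple triangles). The dashed line marks equal slopes. The duct genes lay between -0.32 and 0.27 per h in A5-KO, while *SOX9* and *HES1* lay at -1.31 and -1.58 per h.

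The same factors at single times gave few calls at 0 and 1 h and more at 2 and 3 h. At 0 h, *FOXA1*, which opens chromatin in endoderm, rose (13.9 to 21.0 CPM in WT against 40.1 to 49.4 CPM in the knockout, log2 difference 1.33) and *ONECUT1* fell (18.7 and 17.1 CPM against 7.23 and 5.33 CPM, log2 difference -1.39). Over all genes at 0 h, 1.57% rose and 1.13% fell. At 1 h the same 2 factors were called in the same directions, *FOXA1* at a log2 difference of 1.24, a call lost without any 1 of the 4 libraries at 1 h, and *ONECUT1* at -1.24. Over all genes at 1 h, 2.94% rose and 1.15% fell. At 2 h 8 of 18 fell and at 3 h 14 of 18 fell, with medians of -0.69 and -1.33, where 4.24% and 17.7% of all genes fell. None rose past both limits in limma or edgeR, or at an unadjusted *p* with the same fold limit. The count at 2 h rested on single libraries: it was 2 without the second WT library and 13 without the first, 0 without the second A5-KO library and 3 without the first. At 3 h *SOX9* (log2 difference -2.25), *KLF5* (-2.24) and *GATA6* (-2.03) had the largest falls. At 2 h *SOX9* (-1.37), *ONECUT1* (-0.999) and *GATA6* (-0.98) did, but this order changed without the WT library that stood apart, where *ONECUT1* was at -0.87, *SOX9* at -0.72 and *GATA6*, no longer called, at -0.31. The 11 progenitor markers share several of these factors. Their sum at 3 h was 457 to 462 CPM in WT, against 117 to 135 CPM in the knockout. In WT this sum did not fall steadily. It was 1096 to 1391 CPM at 0 h, 373 to 427 CPM at 1 h and 247 to 573 CPM at 2 h. In the knockout it was 1046 to 1156, 392 to 418 and 192 to 198 CPM at those times. In hILOs 2 of 18 fell, where 4.09% of all genes did. They were *HES1* (44.6 and 44.1 TPM against 27.1 and 24.4 TPM) and the Hippo pathway effector *YAP1* (72.9 and 70.7 TPM against 49.5 and 45.6 TPM). Both calls were lost without any 1 of the 4 libraries.

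Other genes of fluid and ion transport gave few calls in untreated cells. Of the 23 of 27 that were tested in hILOs, 1 rose and 3 fell (2.7% and 4.09% of all genes did), with a median of -0.03 beside -0.06 over all genes. *VIPR1*, a receptor for vasoactive intestinal peptide, rose from 15.9 and 13.4 TPM to 29.6 and 31.4 TPM, a call lost without any 1 of the 4 libraries. The 3 that fell are carbonic anhydrases, which make bicarbonate: *CA9* (6.51 and 6.08 TPM against 0.063 and 0.729 TPM), *CA4* (194 and 180 TPM against 98.1 and 92.5 TPM) and *CA12* (21.5 and 22.0 TPM against 13.8 and 13.3 TPM). The *CA12* call was lost without any 1 of the 4 libraries, and that of *CA9* without either WT library or the first A5-KO library. *CA9* was also the 1 of 20 tested at 0 h in PPs that fell (log2 difference -0.73 ± 0.13, lost without the second WT library), where 1.13% of all genes did, and none rose in limma or edgeR, with 1 at an unadjusted *p*. At 1 h 3 rose, among them *SLC26A3*, a chloride and bicarbonate exchanger (log2 difference 1.51), *VIPR1* (1.30) and *CA9* (0.64), and the kinase gene *WNK1* fell (-0.69), where 2.94% of all genes rose and 1.15% fell. The *WNK1* call was lost without either WT library or the second A5-KO library at 1 h, and that of *CA9* without the second library of either genotype. At 2 h 4 rose, led by *SLC26A3* (1.49), *VIPR1* (1.29) and *CA12* (0.78), and *WNK1* fell again (-0.74, lost without the second A5-KO library at 2 h), where 2.66% of all genes rose and 4.24% fell. At 3 h none of the 20 passed in limma, adjusted or not, and 1 rose in edgeR. With time in A5-KO, 3 rose, among them *SLC4A2* and *CA12* (slopes of 0.13 and 0.12 per h), and *LRRC8A* and *ATP1B1* fell (-0.21 and -0.15 per h), where 7.44% of all genes rose and 37.1% fell, and in WT none did in limma, with 1 positive slope at an unadjusted *p*. With median-of-ratios scaling 8 rose and none fell in A5-KO, and without the second A5-KO library at 0 h 1 rose.

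The list of other epithelial genes held mucins, claudins, trefoil peptides and keratins. In hILOs 4 of 31 tested rose and 3 fell, where 2.7% and 4.09% of all genes did. *MAL2*, a protein of apical transport, rose from 135 and 140 TPM to 327 and 332 TPM, *CLU* from 458 and 432 TPM to 955 and 915 TPM, and *PIGR*, the receptor that carries immunoglobulin A across epithelia, from 395 and 387 TPM to 798 and 755 TPM. *TFF1*, a secreted trefoil peptide, fell from 219 and 216 TPM to 78.5 and 71.6 TPM. The chemokine *CXCL8* and *TFF2* fell too (log2 differences -1.08 and -0.71). The *CXCL8* call was lost without any 1 of the 4 libraries, and that of *TFF2* without either WT library. In PPs at 0 h, *TSPAN8* (0.84) and *MAL2* (0.63) rose and *TFF3* (-1.38) and *TFF1* (-0.72) fell among 28 tested, where 1.57% of all genes rose and 1.13% fell. The calls of *MAL2* and *TFF1* were lost without the second WT or the first A5-KO library.

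At 1 h and at 2 h of Act D 14 of these 28 epithelial genes rose and none fell in limma or edgeR (1 fell at 2 h at an unadjusted *p*), with median log2 differences of 0.63 and 0.53 beside 0.03 and -0.11 over all genes. Of all genes, 2.94% rose at 1 h and 2.66% at 2 h. *CLDN4* and *CLDN7*, tight junction proteins, were called with the largest differences at 1 h (1.58 in both), with *MUC13*, a transmembrane mucin, next (1.36). At 2 h *MUC13* led (59.0 and 66.1 CPM in the WT libraries against 200 and 206 CPM), followed by *TSPAN8* (38.0 and 34.6 CPM against 112 and 116 CPM) and *CEACAM6* (110 and 104 CPM against 321 and 337 CPM). At 3 h *TSPAN8* alone rose (log2 difference 0.62, lost without the first WT library at 3 h), where 1.15% of all genes did. The 15 intestinal markers, of which *CDH17* and *VIL1* were the most abundant, summed at 2 h to 760 to 840 CPM in WT against 1139 to 1144 CPM in the knockout. Their part in these values was not tested. With time in A5-KO, *PIGR* (0.30 per h) and *MAL2* (0.19 per h) rose and 4 fell, led by *KRT18* (-0.26 per h), *EZR* (-0.21 per h) and *CLDN1* (-0.19 per h), where 7.44% of all genes rose and 37.1% fell. The calls of *PIGR* and *MAL2* were each lost in 8 of the 16 fits without 1 library. With median-of-ratios scaling 12 rose and 2 fell, and without the second A5-KO library at 3 h 2 fell.

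Of the 20 genes of cilia and cystic disease, 19 were tested at each stage. None was called in limma in hILOs, with 1 higher at an unadjusted *p*. At 0 h in PPs *DCDC2*, a gene of the ciliary axoneme, rose (46.3 and 44.6 CPM against 86.0 and 82.6 CPM), where 1.57% of all genes did. At 2 h *CYS1* rose (log2 difference 0.82), and *PKD1* (-0.64) and *GLIS3* (-0.61) fell, where 2.66% of all genes rose and 4.24% fell. Each of these 3 calls was lost in 3 of the 16 fits without 1 library. Without the WT library that stood apart *CYS1* was at 1.202 and *PKD1* (-0.49) and *GLIS3* (-0.31) were not called. At 3 h *GLIS3* (-0.89) and *BICC1* (-0.62) fell, where 17.7% of all genes did, and with time in A5-KO 5 of 19 fell, a smaller share than the 37.1% of all genes, led by *GLIS3*, *BICC1* and *INVS* (-0.57, -0.32 and -0.24 per h). That count was 2 without the first A5-KO library at 0 h, and with median-of-ratios scaling 2 fell and 4 rose. *PKHD1* itself was not called at any time. At 2 h it measured 0.642 and 1.28 CPM in the WT libraries against 1.69 and 1.34 CPM in the A5-KO libraries.

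Within the 16 PP libraries, which share genotype and time effects, the genes whose level ran most closely with each duct gene are given as a description. *KRT19* ran with *KRT18*, another keratin (Pearson r = 0.983), *SIRT6* (0.966) and *MARCKS* (0.95), among 8919 genes. *ANXA4* ran with *TSPAN8* (r = 0.985), *SLC44A3* (0.981) and *MAL2* (0.98), and *CFTR* with *GDA* (r = 0.969), *SULT1B1* (0.955) and *BCAT1* (0.953). For *SLC4A4* the closest were *MINDY2* (r = 0.981), *MIB1* (0.955) and *DICER1* (0.949). *MUC1* ran with *GAS6* (r = 0.948), *NADSYN1* (0.941) and *SEMA3B* (0.932), and *SPP1* with *PERP* (r = 0.939), *B2M* (0.885) and *TMEM59* (0.881). *AQP1* ran with *SORCS1* (r = 0.884), *CNTN3* (0.878) and *GP2* of the acinar list (0.876). The lowest values were those of *KRT7*, with *MUC13* (r = 0.868), *CEACAM5* and *CLDN7* (0.858 each), and of *PKHD1*, with *PSMD8* (r = 0.806), *AQP3* (0.801) and *FBXO2* (0.777). Between members, *CFTR* and *ANXA4* were closest (r = 0.911) and *ANXA4* and *SLC4A4* ran most opposed (r = -0.789).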

How the data were processed

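RNA was sequenced in 4 hILO libraries and 16 PP libraries of MEL1 cells, with 2 for each genotype, stage and time. Per the submitters' notes, reads were trimmed with fastp and aligned with HISAT2 2.1.0 to GRCh38. The authors deposited TPM values for hILOs, estimated by StringTie, and CPM values for PPs. The annotation release and the read counter behind the CPM are not given in the sources used here. TPM summed to between 887320 and 924887 in a library, and no spike-in values were used.

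Symbols were assigned by Ensembl identifier, for 60370 of 60624 hILO identifiers and 60369 of 60623 PP identifiers. The deposited CPM gave whole reads for 100% of values (tolerance 0.05 reads). Intervals of counting error were not needed, since libraries were compared.

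Genotypes were compared with limma 3.58.1 in R 4.3.3 on log2 values, with a pseudocount of 1 and a mean of at least 1. This replaced a count test, since the files hold TPM and CPM. Calls needed a Benjamini-Hochberg adjusted *p* below 0.05 over all genes and a fold change over 1.5. The libraries at 1, 2 and 3 h were fitted with those at 0 h, and slopes used a pseudocount of 0.1 and the adjusted *p* alone. TPM and CPM were normalized separately, so stages were not tested against each other. Alternatives were other pseudocounts, filters, scalings, time points, a replicate block, omission of each library, and edgeR 4.0.16 and DESeq2 1.42.0 on recovered reads.

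Named genes were the 9 duct genes, up to 3 called genes for each list and direction, the 3 genes most correlated with each duct gene (mean of at least 10 CPM), *ALKBH5* and the 2 most abundant genes of a marker list. Some genes that this rule would name are not reported here. Members and lists were chosen with earlier results of these data known. On simulated data, limma recovered 100 of 100 genes changed by 1 on the log2 scale in hILOs, with 3 false calls among 17100 genes. At 0 h in PPs it recovered 100 of 100, with 4 among 13711. The simulation had 1 spread for all genes and no differences between whole libraries. It changed no genes of low level, and its calls used the adjusted *p* alone. It therefore checks the code and does not measure how reliable the calls in these libraries are.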

Additional observations from a re-analysis of the deposited data

Results flagged for a closer look

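Of the duct genes tested at the stages compared, 5 lay above WT in both A5-KO libraries at some stage or time and below it in both at another, and their log2 differences (A5-KO minus WT) are given as values. The difference between hILOs and PPs was not tested, since TPM and CPM were normalized separately. Within PPs, the test of the difference between slopes was not past the limit for any of them.

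*SPP1* was lower in hILOs (-1.56), at 0 h (-0.23) and at 3 h (-0.14) and higher at 1 h (0.42) and 2 h (0.83). *KRT7* was lower in hILOs (-0.99) and higher at 1, 2 and 3 h (0.83, 0.84 and 0.37). *KRT19* was higher in hILOs (0.52) and at 1 h (0.75) and lower at 3 h (-0.57). *ANXA4* was lower in hILOs (-0.22) and higher in PPs at every time (0.35, 0.36, 0.56 and 0.20 at 0, 1, 2 and 3 h). *SLC4A4* was higher in hILOs (0.36) and lower in PPs (-0.16, -0.29, -0.22 and -0.17 at the same times). Of these, the hILO and 2 h values of *SPP1*, the 2 h value of *KRT7* and the 1 h value of *KRT19* passed both limits. *PKHD1*, not tested in hILOs or at 0 h, lay above WT in both A5-KO libraries in hILOs (0.048 and 0.019 TPM against 0.015 and 0.010 TPM) and at 2 h (log2 difference 0.38) and below it at 0 h (0.649 and 1.03 CPM against 1.12 and 1.15 CPM).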

How the results depend on the processing

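With 2 libraries in a group, leaving out 1 leaves a lone library that is assumed to vary like the others. Depth limits *KRT7*, *MUC1* and *PKHD1*, which were counted by at most 118 reads in each PP library. It also limits *AQP1*, with 57 to 217 reads. Among 438 alternative values for single duct genes other than the omission of a library, 385 kept their direction and their side of the limits. Causes of the changes listed here were not tested.

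In hILOs the count of duct genes that fell went from 1 to 0 with a pseudocount of 0.1, without the filter and with the replicate block, and the count that rose from 0 to 1 with quantile normalization (*KRT19*). At 0 h the count that fell was 0 without the filter, and at 2 h the count that rose was 4 with median-of-ratios scaling and in edgeR. In the WT slopes 1 gene was negative with 0 and 1 h only and with 0 and 3 h only, and 2 were positive at an unadjusted *p* and with 0 and 3 h only. In the A5-KO slopes the positive count was 0 without the filter and with 0 and 3 h only, 3 with median-of-ratios scaling and 2 with 0 and 1 h only. For the slope difference, 1 was negative at an unadjusted *p* and with 0 and 3 h only, and 1 was positive at an unadjusted *p* and with 0 and 1 h only.

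Directions turned as follows, in values not past the limits except where said. At 0 h *KRT7* was at -0.023 with quantile normalization and *MUC1* at -0.0089 with median-of-ratios scaling, -0.039 with quantile normalization, -0.023 in edgeR and -0.021 in DESeq2. At 3 h *SPP1* was at 0.00096 with median-of-ratios scaling. With that scaling the slopes of *KRT7* in WT (0.0058) and *SLC4A4* in A5-KO (0.062) and the slope differences of *CFTR* (0.030) and *ANXA4* (0.043) turned. With 0 and 1 h only, so did the WT slopes of *CFTR* (-0.055), *SPP1* (-0.19), *MUC1* (-0.20) and *AQP1* (0.10), the A5-KO slopes of *CFTR* (-0.17) and *KRT19* (0.23), and the slope differences of *KRT19* (0.71, past the limit), *ANXA4* (0.0019), *SLC4A4* (-0.13) and *AQP1* (-0.011). With 0 and 3 h only that of *SLC4A4* was at -0.0012.

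Leaving out 1 library gave 0 to 0 falls in hILOs, 0 to 1 falls and 0 to 1 rises at 0 h, 0 to 1 falls and 0 to 3 rises at 1 h, 1 to 2 rises at 2 h, 0 to 1 falls at 3 h, 0 to 1 positive A5-KO slopes and 0 to 1 positive slope differences. Directions that turned ranged from -0.33 to 0.43 for *MUC1* in hILOs. At 0 h the ranges were -0.21 to 0.27 (*KRT7*), -0.051 to 0.14 (*KRT19*) and -0.18 to 0.21 (*MUC1*). At 2 h they were -0.31 to 0.50 (*KRT19*) and -0.050 to 0.37 (*MUC1*), and at 3 h -0.063 to 0.30 (*PKHD1*). The WT slopes ranged from -0.021 to 0.074 (*SPP1*), -0.093 to 0.10 (*KRT7*) and -0.15 to 0.0044 (*PKHD1*), the A5-KO slopes from -0.0030 to 0.24 (*KRT7*) and -0.050 to 0.00050 (*SLC4A4*), and the slope differences from -0.041 to 0.17 (*MUC1*), -0.037 to 0.00041 (*ANXA4*) and -0.0087 to 0.042 (*SLC4A4*).

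Same-numbered libraries of the 2 genotypes deviated together at r = -0.0053 in hILOs, 0.1808 at 0 h, -0.0094 at 1 h, -0.0594 at 2 h and -0.0167 at 3 h, so the numbers were not taken as pairs. With the replicate number as a block, *SPP1* in hILOs was at -1.56 with a limma adjusted *p* of 0.0836, and no other duct gene changed its call.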
